A study of Mus musculus with 6 samples.

Results

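Cxcr4 and Ccr7, the genes of a pair of chemokine receptors, and Cxcl1, Ccl17, Ccl22, Ccl5 and Ccl19, the genes of 5 chemokines, were described in type 1 conventional dendritic cells (cDC1) with and without CD40 stimulation. The 7 genes were chosen with earlier results of these data known. They were taken by symbol from the annotation of the array platform and were matched by 11 of the 17551 probe sets in the deposited table. They are 7 of the 12780 genes that could be tested. The cells were migratory cDC1 of wild-type C57BL/6 mice, sorted from skin draining lymph nodes as B220-, CD326-, MHC II high, CD11c intermediate, XCR1+, Sirpa- and CD40+. One group of 3 samples was unstimulated and the other group of 3 was anti-CD40 stimulated, and each sample was read on 1 array. All cells of both groups had passed the same sort, which includes surface CD40. The sources used here do not give the age or sex of the mice, whether mice were pooled, or the dose, time and route of the antibody. The labels call the samples biological replicates but do not say that they came from separate animals, so a p-value here covers only how much these 6 samples vary, part of which may be technical.

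Chemokines are small secreted proteins that bind G protein-coupled receptors on leukocytes and direct their movement along a gradient. CCR7 carries maturing dendritic cells from the skin through lymph vessels into the T cell zone of the node, along CCL21 and CCL19. CXCR4 is the receptor of CXCL12 and retains many leukocytes in niches where that ligand is made. Dendritic cells also secrete chemokines that bring other cells to them: CCL17 and CCL22 bind CCR4 on T cells, CCL5 attracts T cells and natural killer cells, and CXCL1 binds CXCR2 on neutrophils. CD40, engaged by CD40 ligand on T cells or by an antibody, signals through both branches of NF-kB.

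Levels are log2 of the deposited intensity, and a difference is the mean of the stimulated arrays minus the mean of the unstimulated arrays, so that a difference of 1 is a doubling of intensity. Values of single arrays are given in the order of replicates 1, 2 and 3. The median array level of all probe sets lay between 5.70 and 5.81, and the interquartile range of an array was between 1.86 and 2.40. That range overlapped between the groups, at 2.27, 1.86 and 2.02 without and 2.40, 1.87 and 2.15 with stimulation. For each replicate number it was wider on the stimulated array. The label of the cells was checked on its markers, of which 22 of 24 were measured. Flt3, Irf8, Batf3 and Fscn1 had mean levels of 9.35 or more in both groups, and the receptor gene Xcr1, on which the cells were sorted, was at 4.44 without and 4.67 with stimulation, near the 10th percentile of gene means (4.54). Other cDC1 markers were also below the median of gene means (5.74), namely Itgae (4.76 and 4.92), Wdfy4 (4.91 and 4.90) and Naaa (5.18 and 5.11), and Clec9a was at 6.67 and 6.41. Of the 22 markers, 3 were higher on every stimulated than on every unstimulated array: Cd40 (8.60 and 9.61), Cadm1 (7.43 and 7.79) and H2-Ab1 (9.75 and 10.14). Cd24a was lower on every stimulated array (11.26 and 10.78). Over all genes these shares were 3.68% and 3.46%. Cd74 was also lower (11.14 and 10.37), with overlapping groups. Whether the make-up of the sorted cells differed was not tested. RNA from a sorted bulk sample cannot separate fewer cells with a transcript from less of it per cell.

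Cxcr4 was lower and Cxcl1 was higher in every stimulated array than in every unstimulated array, and the other 5 genes overlapped between the groups. None of the 7 passed the test over all genes, an adjusted p under 0.05 in limma, which compares groups with variance information shared across genes. In that test 2 genes of the table were called higher and none lower, 0.0156% and 0% of 12780. At an unadjusted limma p under 0.05, 1 of the 7 was higher and 1 lower, where 2.07% and 1.42% of all genes were. The groups did not overlap for the same pair of genes, which was the case for 3.68% of all genes in the higher and 3.46% in the lower direction. The 7 genes, like the gene lists used below, were chosen with earlier results of these data known. The counts set beside these shares are therefore a description and not a test.

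**Figure D1:**
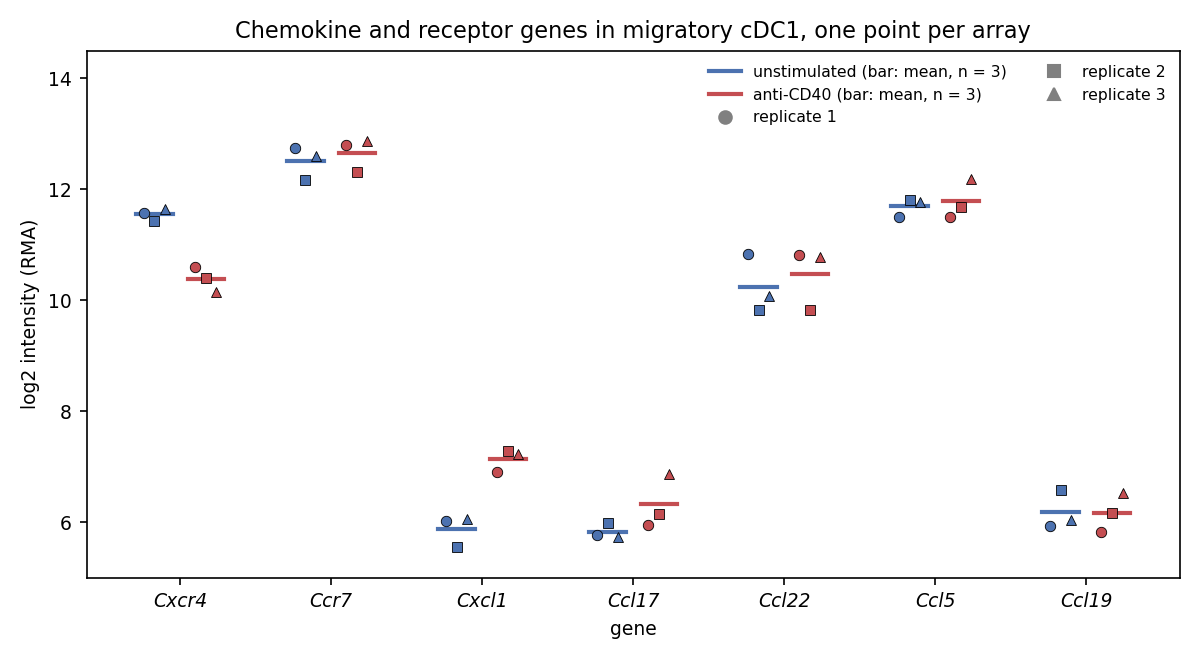
Level of each gene on each array (vertical axis, log2 intensity; symbols give the replicate number and bars the mean of 3 arrays). Cxcr4 is lower on all 3 stimulated arrays, Cxcl1 is higher on all 3, and the other 5 genes overlap between the groups.

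Cxcr4, the CXCL12 receptor, had an intensity of 3057, 2772 and 3221 without stimulation. With anti-CD40 the intensity was 1555, 1354 and 1144. On the log2 scale these are 11.58, 11.44 and 11.65 without and 10.60, 10.40 and 10.16 with stimulation. The lowest unstimulated array lay 0.83 above the highest stimulated one. The means were 11.56 ± 0.11 and 10.39 ± 0.22 (SD, n = 3 each), which is 2.25-fold lower intensity (95% interval 1.68 to 3.01). The log2 difference was -1.17 ± 0.18 (SE), and the limma adjusted p over all genes was 0.209. Among the 12780 genes its unadjusted limma p of 0.000294 was the 17th smallest, and its difference was the 22nd lowest. When 1 array at a time was left out, the difference ran from -1.27 to -1.05. With arrays weighted by their fit to the model the limma adjusted p was 0.0130. Those weights rest on 1 array in each group, 6.14 for unstimulated and 2.20 for stimulated replicate 3 against 0.475 to 0.590 for the other 4. Lymphocytes also carry Cxcr4. The 4 measured B cell markers, of 10 listed, summed to 119 to 196 in the unstimulated and 114 to 177 in the stimulated arrays, and the 8 measured T cell markers, of 13 listed, to 240 to 356 and 253 to 406, so both sums overlapped between the groups.

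The 250 bases before the Cxcr4 start are shown because it is the receptor gene with the lowest difference. They lie at chr1:128592300-128592549 on the minus strand of GRCm38.p6 (RefSeq) and are written 5′ to 3′ along the gene, with the match described next in capitals.
Cxcr4: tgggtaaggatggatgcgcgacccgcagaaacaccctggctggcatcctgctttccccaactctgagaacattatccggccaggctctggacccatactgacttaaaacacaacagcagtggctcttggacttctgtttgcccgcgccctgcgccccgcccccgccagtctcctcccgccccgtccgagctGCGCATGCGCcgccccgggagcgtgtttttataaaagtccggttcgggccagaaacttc
The capitals are GCGCATGCGC, the core of the binding motif of NRF1, a factor of genes for respiration and cell growth, and they stand 59 to 50 bases before the start. These letters read the same on both strands, and 0.782% of 32851 promoter windows of the same length hold them. Only these exact letters were searched, so the share does not cover other forms of the motif. No result given here led to this motif, and the share was not used as a test. The match is a description of the letters, and binding was not measured.

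Ccr7, the receptor for CCL19 and CCL21, was bright in both groups. Its level was 12.74, 12.18 and 12.61 without and 12.80, 12.31 and 12.87 with stimulation. The groups overlapped, and the replicate numbered 2 was the lowest in each. The difference was 0.15 ± 0.23 (SE; 95% interval -0.39 to 0.70), with a limma adjusted p of 0.99998. The interval allows an intensity from 0.762-fold to 1.62-fold of the unstimulated one. Without unstimulated replicate 2 the difference was -0.01, and without both arrays numbered 2 it was 0.16.

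The receptors could be set against each other within each array, where a shift of the whole array cancels but a difference in its spread does not. The log2 level of Ccr7 minus that of Cxcr4 was 1.16, 0.740 and 0.952 without stimulation. It was 2.20, 1.91 and 2.71 with anti-CD40. The size of this quantity on 1 array has no meaning, since the probes of different genes differ in brightness, but a shift between the groups compares the change of one receptor gene with that of the other. The mean was 0.951 ± 0.211 without and 2.27 ± 0.406 with stimulation (SD, n = 3 each), a shift of 1.32, or 2.499-fold in the ratio of intensities. The groups did not overlap. The two-sided exact permutation p was 0.1, the smallest that 3 against 3 arrays can give. Most of the shift is the Cxcr4 difference of -1.17 given above, beside 0.15 for Ccr7. It is therefore not a result separate from that of Cxcr4.

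Cxcl1, the neutrophil attractant, had an intensity of 64.8, 47.2 and 66.8 without stimulation. With anti-CD40 it was 119.8, 156 and 151. On the log2 scale these are 6.02, 5.56 and 6.06 without and 6.90, 7.28 and 7.24 with stimulation. Every stimulated array was above every unstimulated array, and the highest unstimulated value was 0.84 below the lowest stimulated one. The mean went from 5.88 ± 0.28 to 7.14 ± 0.21 (SD, n = 3 each), which is 2.40-fold higher intensity (95% interval 1.71 to 3.36). The log2 difference was 1.26 ± 0.21 (SE), with a limma adjusted p over all genes of 0.245. Its unadjusted limma p of 0.000441 was the 23rd smallest and its difference the 35th highest of 12780. The difference ran from 1.10 to 1.38 when 1 array at a time was left out, and it was 1.03 when 20 was added to each intensity before the logarithm. With array weights the limma adjusted p was 0.0275. The unstimulated level was close to the median of all gene means (5.74), where background can make up part of an intensity, and a ratio of intensities can then understate a ratio of RNA.

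Cxcl1 is also made by fibroblasts, endothelium and macrophages, so markers of those cells were read beside it. The summed intensity of the 7 measured stromal and endothelial markers, of 12 listed, was 250 to 312 in the unstimulated and 214 to 315 in the stimulated arrays. For monocytes and macrophages, with 2 of 13 markers measured (Csf1r and Cx3cr1), the sum was 68.7 to 79.1 without and 62.0 to 79.6 with stimulation. Both ranges overlapped between the groups. Of the stromal and endothelial markers, Pdgfra (4.52 without and 4.36 with stimulation) and Pecam1 (4.33 and 3.998) were under the 10th percentile of gene means (4.54). The collagen genes Col1a1 (6.06 and 5.96) and Col1a2 (5.94 and 5.79) were above the median of gene means, and Col3a1 (5.60 and 5.68), Cxcl13 (5.27 and 4.73) and Pdpn (4.801 and 4.82) were below it. Some markers of other cells were higher on every stimulated than on every unstimulated array. These were Epcam, the gene of the sort-excluded CD326 and a Langerhans cell marker (4.74 and 5.31), Sirpa, also excluded in the sort (4.67 and 4.83), and the T cell marker Cd3e (5.44 and 5.63), all below the median of gene means. Cd6, another T cell marker, was lower on every stimulated array (5.32 and 4.98). No further measured marker of other cells separated the groups. Over all genes, 3.68% were higher and 3.46% lower without overlap. The sum of the 2 measured Langerhans cell markers, of 4 listed, was 55.0 to 68.7 without and 67.3 to 81.7 with stimulation, and that of the 3 measured cDC2 markers, of 9 listed, was 80.2 to 100.1 and 99.9 to 139. The part of other cells in the Cxcl1 and Cxcr4 differences was not tested.

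The 250 bases before the Cxcl1 start are shown because it was the ligand gene with the highest difference. They lie at chr5:90890995-90891244 on the plus strand of GRCm38.p6 (RefSeq), written 5′ to 3′, with motif matches in capitals.
Cxcl1: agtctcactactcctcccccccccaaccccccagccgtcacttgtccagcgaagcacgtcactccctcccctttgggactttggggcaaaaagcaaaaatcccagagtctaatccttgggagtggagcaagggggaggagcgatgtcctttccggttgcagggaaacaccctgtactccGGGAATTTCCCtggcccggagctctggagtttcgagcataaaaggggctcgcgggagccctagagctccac
The capitals mark the NF-kB consensus, searched on both strands. It matched at 71 to 62 bases before the start on the plus strand (GGGAATTTCC) and, shifted by a base, at 70 to 61 on the minus strand, so the matches overlap. It occurs in 7.25% of the 32851 windows of this length. Of the members, 5 had a window in the table, and the windows of Cxcr4, Ccl17, Ccl22 and Ccl19 held no match. That says only that these letters are not in those windows. The match in Cxcl1 is likewise a description of the letters, and neither binding nor NF-kB activity was measured.

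Ccl17 and Ccl22 encode the ligands of CCR4. Ccl17 was at 5.77, 5.98 and 5.74 without and at 5.96, 6.16 and 6.88 with stimulation. The groups overlapped, since stimulated replicate 1 lay below unstimulated replicate 2, and stimulated replicate 3 stood above the other 5 arrays. The difference was 0.50 ± 0.26 (SE; 95% interval -0.11 to 1.11), with a limma adjusted p of 0.99998. Without stimulated replicate 3 it was 0.23. Its level was near the median of all gene means, as for Cxcl1.

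Ccl22 varied more within a group than between groups. It was at 10.83, 9.82 and 10.07 without and at 10.81, 9.83 and 10.78 with stimulation. The replicates numbered 1 were high and those numbered 2 low in both groups, and only the replicates numbered 3 stood apart from each other. The means were 10.24 ± 0.53 and 10.47 ± 0.56 (SD, n = 3 each), and the difference was 0.23 ± 0.36 (SE; 95% interval -0.62 to 1.08, limma adjusted p = 0.99998). Ccl22 and Ccr7 were both lowest in the replicates numbered 2, the arrays with the narrowest interquartile range in each group. With that range as a covariate the differences were 0.03 for Ccl22 and 0.05 for Ccr7. Ccl17 lies beside Ccl22 on chromosome 8 with 1 protein-coding gene between them, Cx3cl1, which encodes the membrane-bound ligand of CX3CR1. Cx3cl1 differed by -0.34 ± 0.47 (SE), so the differences of these neighbours were 0.23, -0.34 and 0.50, and none passed.

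Ccl5, which attracts T cells and natural killer cells, was at 11.51, 11.81 and 11.78 without stimulation. With anti-CD40 it was at 11.49, 11.68 and 12.19. The groups overlapped, with both the lowest and the highest of the 6 arrays in the stimulated group. The difference was 0.09 ± 0.22 (SE; 95% interval -0.43 to 0.62, limma adjusted p = 0.99998). It was -0.004 without unstimulated replicate 1 and -0.11 without stimulated replicate 3. T cells and natural killer cells also make Ccl5. The T cell marker sums are those given for Cxcr4. The 2 measured natural killer cell markers, Prf1 and Klrk1 of 9 listed, summed to 67.1 to 88.3 in the unstimulated and 54.1 to 67.6 in the stimulated arrays. Klrk1 was at 5.51 and 4.73 with overlapping groups, and Prf1 at 5.03 and 5.10. Of the 8 measured T cell markers, 6 had positive and 2 negative differences. Among the defining ones, Cd3e was at 5.44 and 5.63, Cd3d at 4.43 and 5.07 and Cd3g at 4.78 and 5.40. All these means were below the median of all gene means, and the groups overlapped for Cd3d and Cd3g. On stimulated replicate 3, where Ccl5 was highest, Cd3d (5.97) and Cd3g (6.12) were also at their highest, and Cd3e (5.59) was not. The part of such cells in the Ccl5 level was not tested.

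**Figure D2:**
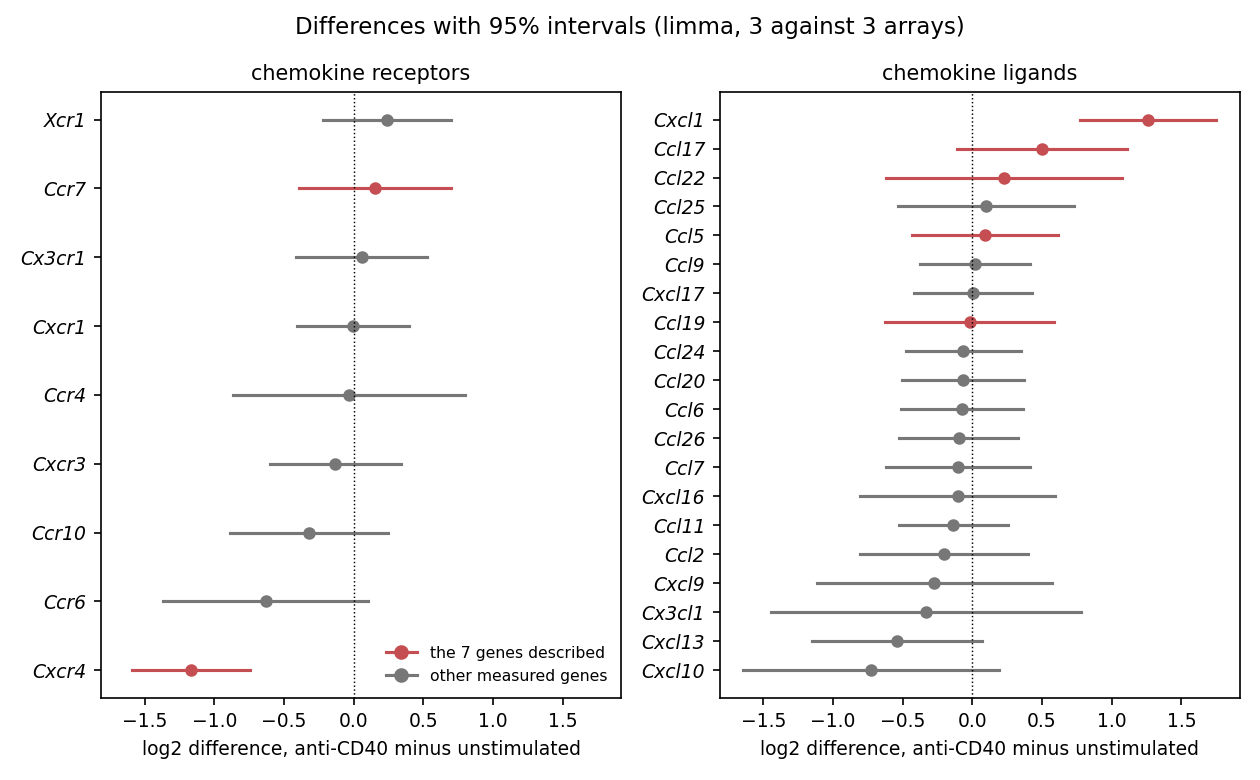
Log2 difference (stimulated minus unstimulated, points) with its 95% limma interval (lines) for the 9 measured chemokine receptor genes and the 20 measured chemokine ligand genes; the 7 genes described are in red. Only the intervals of Cxcr4, at -1.17, and Cxcl1, at 1.26, leave out 0.

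Ccl19, a ligand of CCR7, was represented by 5 probe sets, and RefSeq lists 3 pseudogene copies of it, so its signal may come from more than 1 locus. The probe set used, 10504132, was at 5.94, 6.59 and 6.04 without and at 5.82, 6.17 and 6.53 with stimulation. Unstimulated replicate 2 and stimulated replicate 3 were the highest, and the groups overlapped. The difference was -0.02 ± 0.26 (SE; 95% interval -0.63 to 0.59, limma adjusted p = 0.99998). Over the 5 probe sets the difference ran from -0.12 to -0.02. Probe sets 10504159 and 10512322 held identical values on all 6 arrays, among 299 probe sets of the table that share all their values with another. The probe sets of Ccl19 are thus not independent measurements. Ccl19 is made in the node by fibroblastic reticular cells as well as by dendritic cells. The stromal marker sums given above overlapped between the groups, and the part of stromal cells in the Ccl19 level was not tested. The genes of CCL21, the other CCR7 ligand, were listed but were not among the genes that could be tested. The same holds for Cxcl12, the gene of the CXCR4 ligand.

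**Figure D3:**
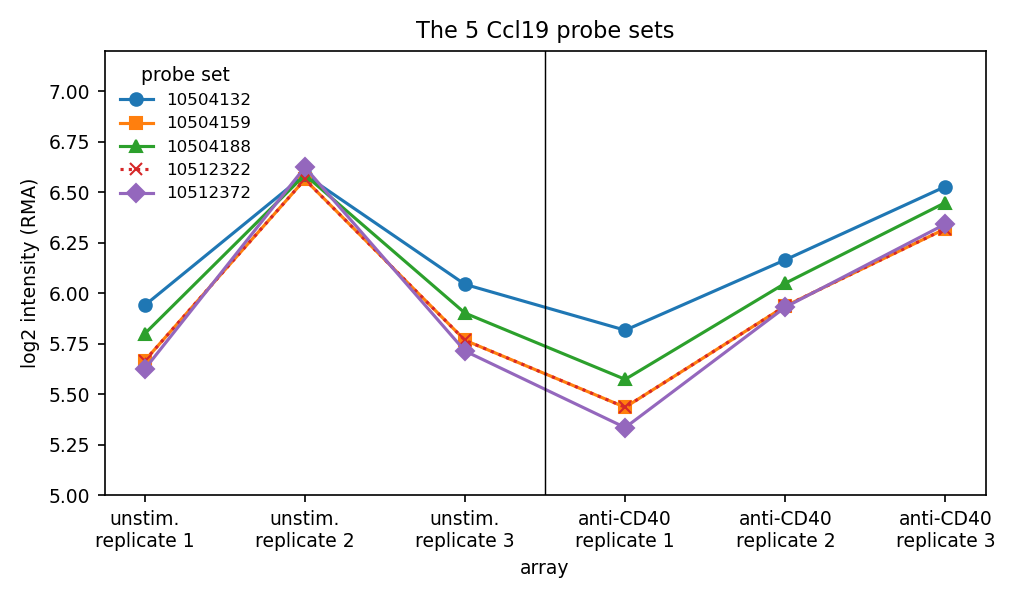
Log2 intensity of each of the 5 Ccl19 probe sets (lines) on the 6 arrays. The lines rise and drop together, and those of 10504159 and 10512322 lie on top of each other.

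In the wider chemokine family no measured gene passed the test over all genes. Of 40 chemokine ligand genes listed, 20 were measured, with 7 differences above and 13 below 0 and a median of -0.07. Over all 12780 genes the median difference was 0.005 and 51.0% were positive. Cxcl1, which was higher, was the 1 ligand of 20 with an unadjusted limma p under 0.05. Over all genes 2.07% were higher and 1.42% lower at that threshold. Cxcl10, an interferon-induced ligand of CXCR3, was the ligand with the lowest difference, -0.73 ± 0.39 (SE). It was at 5.89, 7.25 and 5.77 without and at 5.33, 5.72 and 5.68 with stimulation. The groups did not overlap, by a gap of 0.05, and unstimulated replicate 2 stood far above the other 5 arrays. Of all genes, 3.46% were lower without overlap. Cxcl16, the ligand of CXCR6, was bright in both groups (11.63 ± 0.40 and 11.52 ± 0.46, SD, n = 3 each) and differed by -0.11.

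Of 18 chemokine receptor genes listed, 9 were measured, with 3 positive and 6 negative differences and a median of -0.03. None passed over all genes in limma. Cxcr4, which was lower, was the 1 receptor of 9 with an unadjusted limma p under 0.05, where 1.42% of all genes were lower and 2.07% higher. Ccr6, the receptor of CCL20, came next to Cxcr4 with -0.63 ± 0.31 (SE) at a dim level of 5.37 and 4.74, and its groups overlapped. Cxcr3, Cxcr1, Ccr4 and Cx3cr1 had differences between -0.13 and 0.06. Ccr10 differed by -0.32. Xcr1 had the highest difference of the 9, 0.24 ± 0.20 (SE), at the low level given above and with overlapping groups.

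**Figure D4:**
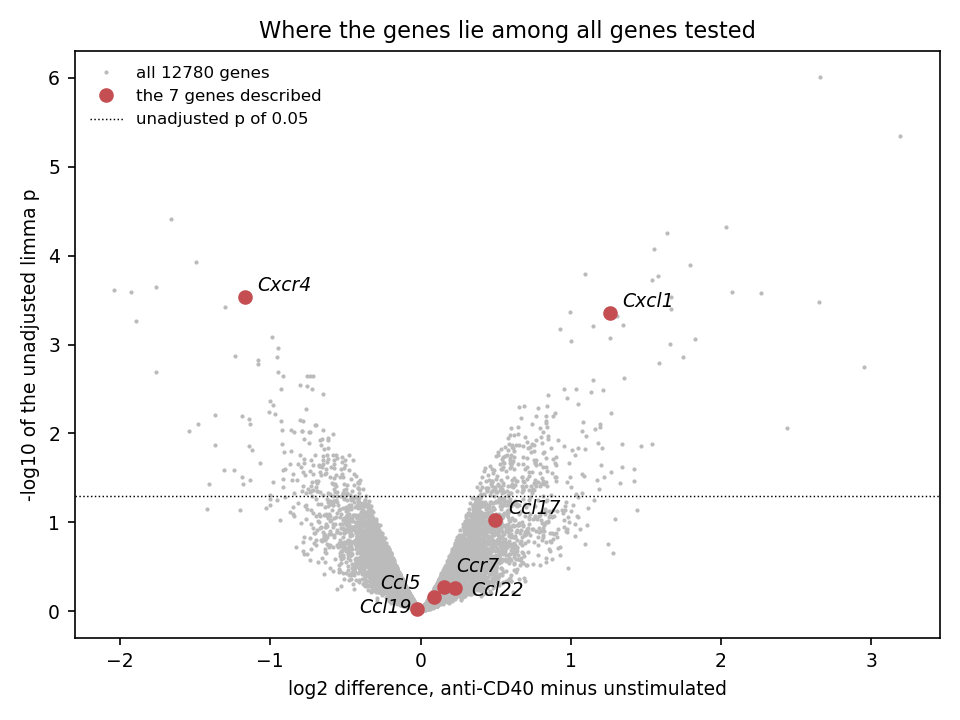
Log2 difference (horizontal axis) and -log10 of the unadjusted limma p (vertical axis) for 12780 genes (grey) and the 7 genes described (red). Cxcr4 and Cxcl1 lie on opposite sides and far from the other 5, and a number of grey points lie farther out than either.

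Genes of other chemoattractant receptors, and genes that act downstream of chemokine receptors, did not pass either. Of 7 measured atypical and related chemoattractant receptor genes, of 18 listed, 5 differences were above and 2 below 0 (median 0.01). Ptger4, a receptor of prostaglandin E2, which promotes CCR7-driven migration of dendritic cells, was at 8.44, 7.95 and 8.01 without and at 8.93, 8.33 and 8.94 with stimulation. The difference was 0.61 ± 0.24 (SE), with an unadjusted limma p of 0.0373 and a limma adjusted p of 0.99998. The second stimulated replicate lay below the first unstimulated one. Genes of G protein signalling, desensitisation and receptor traffic (28 of 35 measured) had 16 positive and 12 negative differences and a median of 0.02. None of the 28 had an unadjusted limma p under 0.05. The lowest statistics were those of Gna13, a G protein alpha subunit that acts on RhoA (-0.48), the receptor kinase gene Grk3 (-0.32) and the arrestin gene Arrb1 (-0.73 ± 0.52 SE). The highest were those of Rab11fip1, which acts in the return of receptors to the surface (0.42), the deubiquitinase gene Usp14 (0.23) and Rgs2, which shortens G protein signals (0.33).

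Among chemotaxis effectors (31 of 36 measured), 20 had positive and 11 negative differences, and the median was 0.17. None passed over all genes in limma. At an unadjusted limma p under 0.05, 2 were higher and none lower, where 2.07% and 1.42% of all genes were. The 2 were Rassf5, which encodes an activator of integrins downstream of chemokine receptors (0.90 ± 0.35 SE, groups overlapping), and Fermt3, which encodes the integrin activator kindlin-3 (0.53 ± 0.22 SE, groups not overlapping). Was, the actin regulator mutated in Wiskott-Aldrich syndrome, and Rock1, a kinase that drives contraction, also had groups that did not overlap, with differences of 0.22 and 0.24. Was is named because of that separation, after its values were seen. Over all genes, 3.68% were higher without overlap. Jak2, a kinase reported downstream of several cytokine and chemokine receptors, had the lowest difference, -0.90 ± 0.39 (SE). Its means were 10.15 ± 0.48 and 9.25 ± 0.68 (SD, n = 3 each), and the groups overlapped. After Jak2 the lowest statistics were those of Elmo1 (-0.62 ± 0.39 SE) and Pik3cg (-0.31 ± 0.32 SE), both with overlapping groups.

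The members were also compared by the shape of their values over the 6 arrays, as the root mean square distance between log2 profiles after each gene's own mean was subtracted. The arrays share their groups and their array-wide spread, so a small distance is a description and says nothing of shared control. It is not scaled by how much a gene varies, so genes that vary little lie close to each other whatever their shape. Ccl5 and Ccl19 were the closest pair (0.170), followed by Ccl17 and Ccl5 (0.234) and by Ccr7 and Ccl22 (0.243). The deviations of these genes from their own means were 0.234 for Ccl5, 0.287 for Ccl19, 0.382 for Ccl17, 0.256 for Ccr7 and 0.458 for Ccl22. Cxcr4 and Cxcl1 were the farthest apart (1.24). Among 12096 other genes, those nearest to Cxcr4 were Lpar6 (0.131), a receptor of lysophosphatidic acid, Sh2d4b (0.137) and Hells (0.166), against a deviation of Cxcr4 from its own mean of 0.601. Those nearest to Cxcl1 were Ube2l6 (0.173), the conjugating enzyme of ISG15, Gng4 (0.218), a G protein gamma subunit, and Il1rn (0.229), which encodes an IL-1 receptor antagonist, against a deviation of 0.661. The nearest gene was Xrcc1 for Ccr7 (0.048), Tmem86b for Ccl22 (0.052), Mettl26 for Ccl17 (0.087), Cuta for Ccl5 (0.039) and Olfr10 for Ccl19 (0.069).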

How the data were processed

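Biotinylated cDNA made from total RNA of 6 sorted samples was hybridised to Affymetrix arrays, per the labels' protocols. Per the submitters' processing notes, RMA values were made by the authors with Affymetrix Expression Console, whose version and settings the sources used here do not give. The deposited intensity values are on a linear scale (6.97 to 13701), so log2 was taken. Platform annotation gave 1 symbol to 13963 probe sets; genes with several (677) were represented by the brightest. The test was limma 3.58.1 (R 4.3.3; lmFit and eBayes, no covariates, two-sided) with Benjamini-Hochberg adjustment over 12780 genes, and the procedure was tested on simulated data. Members and gene lists were chosen with earlier results of these data known. The text names all members, any ligand or receptor, the extreme members of the other lists and, for each member, the nearest of 12096 genes. Alternatives were other variance models, filters, scalings, probe set rules and omitted arrays. Promoter windows came from RefSeq (GRCm38.p6). Figures were drawn with matplotlib 3.10.9. The number of arrays limits precision.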

Additional observations from a re-analysis of the deposited data

How the results depend on the processing

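Cxcr4 and Cxcl1 kept their direction in all 19 refits run for each, with log2 differences of -1.36 to -1.004 and 1.03 to 1.45. They passed 0.05 only with array weights (-1.36, adjusted p = 0.0130, and 1.17, adjusted p = 0.0275), which put most weight on the replicates numbered 3. Ccl17 stayed positive (0.18 to 0.86). Signs turned for Ccl19 with array weights (0.28), with the interquartile range as covariate (0.066) and without both arrays numbered 1 (0.031) or 2 (0.18), for Ccl22 without both numbered 3 (-0.0092) and for Ccl5 without both numbered 3 (-0.068). Leaving out 1 array at a time gave -1.27 to -1.05 for Cxcr4, -0.012 to 0.33 for Ccr7, 1.10 to 1.38 for Cxcl1, 0.23 to 0.68 for Ccl17, 0.02 to 0.55 for Ccl22, -0.11 to 0.24 for Ccl5, -0.20 to 0.18 for Ccl19 and 1.10 to 1.503 for Ccr7 minus Cxcr4. The sign of Ccl5 turned without unstimulated replicate 1 (-0.004) or stimulated replicate 3 (-0.11), that of Ccr7 without unstimulated replicate 2 (-0.012), and that of Ccl19 without unstimulated replicate 2 (0.18) or stimulated replicate 1 (0.16). The cause was not tested. Genes called over the table (2 higher, 0 lower with all arrays and no covariate) numbered 28 and 18 with array weights, 11 and 4 with the covariate, 1 higher with 20 added to intensities, 3 higher and 1 lower after a further quantile normalisation, and 0 higher without any 1 array or both arrays of a number, at an adjusted p under 0.01, or in a linear model without shared variance. Arrays of the same number correlated in their deviations from the group means at 0.727, 0.594 and 0.061 for numbers 1, 2 and 3, and the labels do not state a pairing. With the replicate number as a block 30 genes were higher and 8 lower, none of them a member (adjusted p = 0.0537 for Cxcr4 and 0.0687 for Cxcl1).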
